A study of Bos taurus with 6 samples.

Results

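Genes known as markers of the superficial and intermediate layers of articular cartilage were followed by RNA sequencing in cultured bovine chondrocytes of the deep zone, which lies next to the bone. The genes named were TPPP3, ABI3BP, CLU, CRTAC1, VCAM1, HTRA1, CILP, CILP2, SNORC and SCRG1. They were looked up by symbol in the authors' deposited table, which matched 8 of the 10 among 27607 genes, and all 8 passed the filter for testing, a mean normalized count of at least 10. ABI3BP and CILP were not matched by symbol and were not analysed here. A lentivirus had given all the cells a bovine CREB5 gene, which encodes a transcription factor, under control of doxycycline, and they had been selected for 11 days in G418 at 500 µg/ml. They were then kept for 3 days on low attachment plates in medium with serum and the growth factors TGFa at 100 ng/ml and TGFb2 at 20 ng/ml. One group had no doxycycline (Dox-, 3 libraries) and the other had it (Dox+, 3 libraries), at 1 µg/ml per the treatment protocol, although the unit differs elsewhere in the descriptions. The labels name 3 independently collected knees as the source, and the libraries of each group were numbered 1 to 3. Wherever 3 library values follow each other, they stand in the order of these numbers, and "without doxycycline" and "with it" name the groups.

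Articular cartilage is layered. Superficial cells are flattened, face the joint cavity and secrete lubricin, the product of PRG4. Intermediate zone cells sit in a matrix rich in proteoglycan and hold the cartilage intermediate layer proteins for which that zone is known. Deep cells stand in columns above calcified cartilage. The genes described here are of several kinds: a cell surface adhesion receptor (VCAM1), a microtubule-binding protein (TPPP3), a secreted chaperone (CLU), a secreted protease (HTRA1), secreted matrix proteins (CILP2, CRTAC1), a membrane proteoglycan of cartilage (SNORC) and a small secreted protein of chondrogenic cells (SCRG1). The comparison asked whether they move when doxycycline induces CREB5 in cells that come from the other end of the tissue. All 6 libraries came from cells with the vector, so an effect of doxycycline itself and one of CREB5 cannot be told apart.

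CREB5 itself stood at 510, 308 and 330 normalized counts without doxycycline and at 20935, 12413 and 21964 with it, so each library lay on the side of its label. Transgene and endogenous transcripts cannot be told apart in these counts. PRG4, the superficial zone reference, was 571, 1705 and 929 without doxycycline and 253217, 565979 and 359117 with it. Depth ranged from 20063379 reads (Dox+ 3) to 122366790 reads (Dox+ 2). Of the chondrocyte genes, COL2A1 had 41283 ± 20422 and ACAN 62558 ± 28201 normalized counts in Dox- cells (SD, n = 3). Of 12 genes of the deep and calcified zone, CLEC3A was at 0 in all libraries. COL10A1 and EPYC were at 0 in each Dox- library, where a count of 0 allows up to 1.84, 4.44 and 1.83 normalized counts. IBSP had 6, 1 and 0 reads in the Dox- libraries. ALPL (450 ± 476, from 997, 223 and 130) and SPP1 (29297 ± 6119) were present in Dox- cells. In bulk RNA, fewer cells with a transcript and less transcript per cell cannot be told apart.

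Of the 8 zone marker genes, VCAM1 was higher and SNORC was lower in Dox+ cells once each Dox+ library was set against the Dox- library of the same number. TPPP3 was higher, and CLU, HTRA1, CILP2 and SCRG1 were lower, within all 3 pairs of the same number, by 1.49-fold to 1.67-fold in the fit, and these 5 did not pass in limma with all 6 libraries. Of all tested genes, 19.5% were higher and 19.0% were lower in every pair. CRTAC1 went either way. The fit on group alone, limma on log2(normalized count + 1) with Benjamini-Hochberg adjustment at 0.05, called 0 of the 8, against 2.88% of the 13180 genes tested, and 2 of the 8 (SNORC and HTRA1) had an unadjusted p under 0.05, as 10.6% of all tested genes did. On reads recovered from the normalized counts, edgeR's quasi-likelihood test called 0 of the 8 (2.60% of all genes) and DESeq2 called 1, SNORC (5.33%). When the replicate number entered the fit as a block, limma called VCAM1 higher (4.86% of all genes were called higher) and SNORC lower (1.65% were called lower). Adjusted p-values from such fits are given below as blocked values. With the same block, edgeR called the same 2 genes (5.93% of all genes were called) and DESeq2 called these and CLU (7.96%). The authors' deposited table, made from the same libraries, has an adjusted p under 0.05 for VCAM1, SNORC and CLU, beside 7.30% of the 14664 genes to which it gives one. Its unadjusted p for VCAM1, 8.4e-12, lies close to DESeq2 with the block (6.2e-12) and far from DESeq2 on group alone (0.18). It is thus not separate evidence beside the blocked fit.

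**Figure D1:**
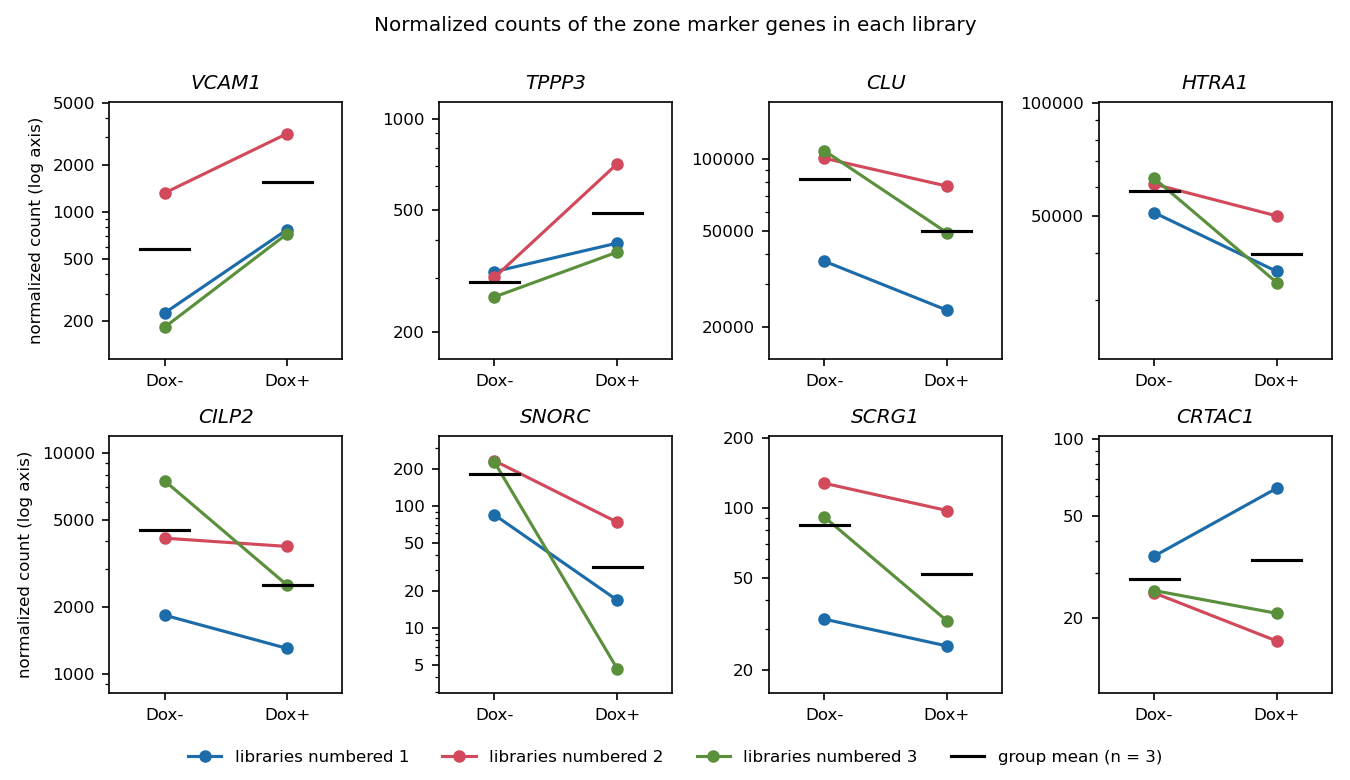
Normalized counts (log axis, a scale of its own for each gene) of the 8 genes in the Dox- and Dox+ libraries; coloured lines join libraries of the same number and black bars are group means (n = 3). All 3 lines rise for VCAM1 and TPPP3, all 3 fall for CLU, HTRA1, CILP2, SNORC and SCRG1, and for CRTAC1 1 line rises and 2 fall.

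VCAM1 (ENSBTAG00000007773) encodes vascular cell adhesion molecule 1, a surface receptor that binds integrin alpha4 beta1 on other cells and is also made by mesenchymal cells of the joint. It had 226, 1324 and 183 normalized counts without doxycycline and 773, 3176 and 728 with it. The libraries numbered 2 were the highest of both groups, and Dox- 2 lay above Dox+ 1 and Dox+ 3, so the groups overlapped. Within a number the order was the same each time: Dox+ was 3.42-fold above Dox- in number 1, 2.40-fold in number 2 and 3.97-fold in number 3. The group means were 578 ± 646 and 1559 ± 1401 (SD, n = 3), a 3.18-fold higher level in the fit (log2 fold change 1.67). With group alone the 95% interval of the fold ran from 0.91 to 11.1 (limma adjusted p = 0.53). With the block, VCAM1 rose with an interval of 2.28-fold to 4.46-fold (limma adjusted p = 0.0011, edgeR 0.0018). On group alone the size depended on single libraries: the log2 fold change was 0.98 without Dox+ 2 (limma adjusted p = 0.62), 1.15 without Dox- 3 (0.90) and 2.57 without Dox- 2 (0.10). When 1 pair was left out of the blocked fit it was 1.52 to 1.88.

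TPPP3 (ENSBTAG00000019822) encodes a small protein of the tubulin polymerization promoting family, which bundles microtubules, and marks progenitor cells of the tendon sheath as well as superficial chondrocytes. Its level was 315, 302 and 260.5 without doxycycline and 391, 711 and 365 with it. Every Dox+ library lay above every Dox- library, with Dox+ 2 well above the other two. This was the single gene of the 8 that was higher without overlap, as 8.88% of all tested genes were. The fold was 1.60, with a 95% interval of 0.99 to 2.57 on group alone (limma adjusted p = 0.49) and 1.08 to 2.36 with the block (limma adjusted p = 0.20). With the block and without pair 3 it passed (adjusted p = 0.012). Fits with a pair left out rest on 1 residual degree of freedom, and they called 5.99%, 9.18% and 11.0% of all tested genes without pair 1, 2 and 3. In RefSeq's ARS-UCD2.0 table TPPP3 overlaps LRRC36, which had a mean of 0.78 normalized counts here.

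CLU (ENSBTAG00000005574) encodes clusterin, a secreted chaperone that is abundant in surface cartilage and synovial fluid. It counted 37447, 100431 and 107962 without doxycycline and 23416, 76878 and 49171 with it. Number 1 was the lowest library of both groups, and Dox- 1 lay below Dox+ 2 and Dox+ 3. Dox- exceeded Dox+ by 1.60-fold, 1.31-fold and 2.20-fold in pairs 1, 2 and 3. The fit gave a 1.66-fold lower level in Dox+, with a 95% interval of the log2 fold change from -1.89 to 0.42 on group alone (limma adjusted p = 0.77) and from -1.21 to -0.26 in the blocked fit. The blocked value missed the threshold in limma (adjusted p = 0.084) and edgeR (0.098) and passed in DESeq2 (0.013). It also passed in limma without pair 2 (log2 fold change -0.91, adjusted p = 0.043). The log2 fold change in the authors' deposited table, which appears to be shrunken, is -0.65, with an adjusted p of 0.014.

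HTRA1 (ENSBTAG00000008389) encodes a secreted serine protease that cleaves matrix proteins such as fibronectin and cartilage proteoglycans. Its values were 51144, 60896 and 63136 without doxycycline and 35646, 50109 and 33293 with it. The groups did not overlap, though Dox+ 2 came within a few percent of Dox- 1. HTRA1 and SNORC were the 2 genes of the 8 that were lower without overlap (6.29% of all tested genes were). The group means were 58392 ± 6376 and 39683 ± 9106 (SD, n = 3), 1.49-fold lower in Dox+, with a 95% interval of 1.05-fold to 2.12-fold on group alone (limma adjusted p = 0.36, blocked 0.17). Among the 8 genes HTRA1 varied least between numbers, by 1.29-fold.

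CILP2 (ENSBTAG00000014969) encodes the second cartilage intermediate layer protein, a secreted matrix protein. It was 1843, 4119 and 7504 without doxycycline and 1301, 3778 and 2518 with it. As for CLU, number 1 was lowest in both groups and the groups overlapped. The 3 pairs were lower by very different amounts, 1.42-fold, 1.09-fold and 2.98-fold, so that Dox+ 2 stood close to Dox- 2. The fit gave a 1.66-fold lower level (limma adjusted p = 0.78, blocked 0.16). Without pair 3 and with the block the log2 fold change was -0.31, and without pair 2 it was -1.04 (adjusted p = 0.0016).

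SNORC (ENSBTAG00000018058) encodes a transmembrane chondroitin sulfate proteoglycan made by chondrocytes. It was counted with 138, 159 and 375 reads without doxycycline and 10, 167 and 2 reads with it, which came to 84.6, 235 and 229 against 16.9, 73.7 and 4.65 normalized counts. All 3 Dox+ libraries lay below all 3 Dox- libraries. The value of Dox+ 3, the shallowest library, was under its floor of 3 reads, which equals 6.98 normalized counts. The 95% exact counting interval of the ratio of Dox- to Dox+ ran from 2.64 to 10.7 in pair 1. The ratio was 3.19 in pair 2 (2.55 to 3.99) and 49.3 in pair 3 (13.6 to 409). These intervals cover counting error only.

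The fit put SNORC 8.51-fold lower in Dox+ cells (log2 fold change -3.09, SE 0.87), with a 95% interval of 2.15-fold to 33.6-fold on group alone (limma adjusted p = 0.14). With the block it fell with an interval of 3.22-fold to 22.4-fold (limma adjusted p = 0.015, edgeR 0.030). The size of the change depended on the method, with log2 fold changes of -2.38 in edgeR and -2.45 in DESeq2 on group alone and -2.67 and -2.83 with the block. It also depended on the pairs: with the block the log2 fold change was -1.96 without pair 3, -3.50 without pair 1 and -3.80 without pair 2. On group alone SNORC passed without Dox+ 2 (log2 fold change -4.05, adjusted p = 0.019, beside 2.61% of all genes called) and not without any of the other 5 libraries (adjusted p 0.080 to 0.41).

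In RefSeq's ARS-UCD2.0 table SNORC overlaps NGEF, a guanine nucleotide exchange factor gene, and no strand setting of the counting is given in the sources used here, so reads in the shared stretch cannot be assigned with certainty. NGEF was 741, 1225 and 1081 without doxycycline and 227, 358 and 140 with it, 4.41-fold lower in the fit (limma adjusted p = 0.015, blocked 0.0011). SNORC had 11.4, 19.2 and 21.2 reads per 100 NGEF reads without doxycycline and 7.46, 20.6 and 3.33 with it. In number 2 that ratio was thus nearly the same in both groups, while in numbers 1 and 3 it was lower in Dox+. Those lower ratios rest on 10 and 2 SNORC reads in Dox+ 1 and Dox+ 3, and no interval was computed for them. The part of shared reads in the SNORC result was not tested.

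SCRG1 (ENSBTAG00000012535) encodes a small secreted protein first known from scrapie-infected brain and present in chondrogenic cells. It had 54, 86 and 149 reads without doxycycline and 15, 220 and 14 with it, or 33.1, 127 and 91.1 against 25.4, 97.1 and 32.6 normalized counts. Number 2 was highest and number 1 lowest in both groups, and the groups overlapped. Dox- exceeded Dox+ by 1.30-fold, 1.31-fold and 2.80-fold in pairs 1, 2 and 3, with exact counting intervals of 0.73 to 2.49, 1.01 to 1.69 and 1.62 to 5.24. The fit gave a 1.67-fold lower level with a 95% interval of the log2 fold change from -2.23 to 0.75 on group alone (limma adjusted p = 0.84, blocked 0.41). That interval includes 0.

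CRTAC1 (ENSBTAG00000008102), which encodes a secreted glycoprotein of the cartilage matrix, had the fewest reads of the 8, with 57, 17 and 42 reads without doxycycline and 38, 37 and 9 with it. Its normalized counts were 35.0, 25.1 and 25.7 against 64.3, 16.3 and 20.9. Number 1 was highest in both groups, and that pair alone was higher in Dox+. The log2 fold change was -0.01, with a 95% interval of -1.36 to 1.35 on group alone and -1.05 to 1.04 with the block (limma adjusted p = 1 in both). Its sign changed with the pseudocount and the scaling, and a change of up to 2.06-fold either way lay within the interval with the block.

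**Figure D2:**
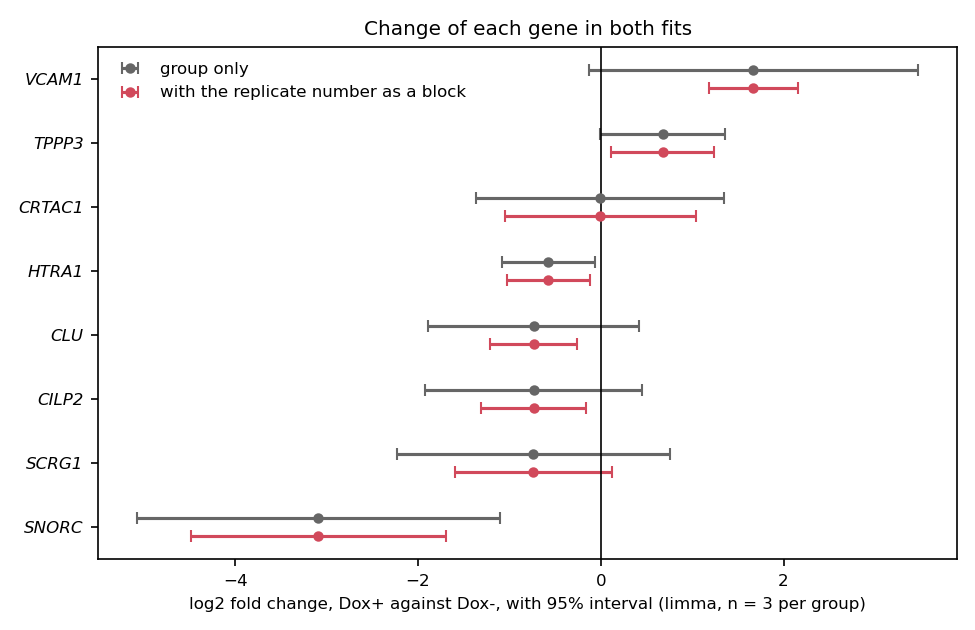
Log2 fold change of each gene between Dox+ and Dox- cells in limma (points) with 95% intervals (bars), on group alone in grey and with the replicate number as a block in red. The block narrows the interval of VCAM1 from between -0.13 and 3.47 to between 1.19 and 2.16 and leaves those of SCRG1 and CRTAC1 across 0.

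The 8 genes differed between numbers as well as between groups. The mean of both groups' log2 levels differed by 5.60-fold between the highest and the lowest number for VCAM1, 3.74-fold for SCRG1, 3.68-fold for SNORC, 2.97-fold for CLU, 2.81-fold for CILP2, 2.28-fold for CRTAC1, 1.50-fold for TPPP3 and 1.29-fold for HTRA1. For 5 of the 8 the range between numbers was larger than the difference between Dox+ and Dox-, as it was for 76.9% of all tested genes. The median range over the 8 genes was 2.89-fold, against 1.43-fold over all tested genes. In Dox+ cells 7 of the 8 were highest in number 2, as 38.6% of all tested genes were, and CRTAC1 was the exception. CLU, CILP2 and SCRG1 were lowest in number 1 in both groups, as 18.4% of all tested genes were.

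By the root mean square difference of centred log2 levels over the 6 libraries, the most alike of the 28 pairs were CLU and CILP2 (0.23), CLU and SCRG1 (0.33) and CILP2 and SCRG1 (0.48). VCAM1 and SNORC were the least alike (2.57). The same 3 alike genes shared with COL2A1, the type II collagen gene, a lowest Dox- level in number 1: centred log2 levels of COL2A1 were -0.27, 1.37 and 1.11 without doxycycline and -1.34, 0.05 and -0.93 with it, against -0.62, 0.81 and 0.91 and then -1.29, 0.42 and -0.22 for CLU. HTRA1, SNORC and ACAN also had their lowest Dox- level in number 1, so this does not set the 3 alike genes apart. The libraries share their numbers, and the depth differs between them, so these are descriptions only.

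**Figure D3:**
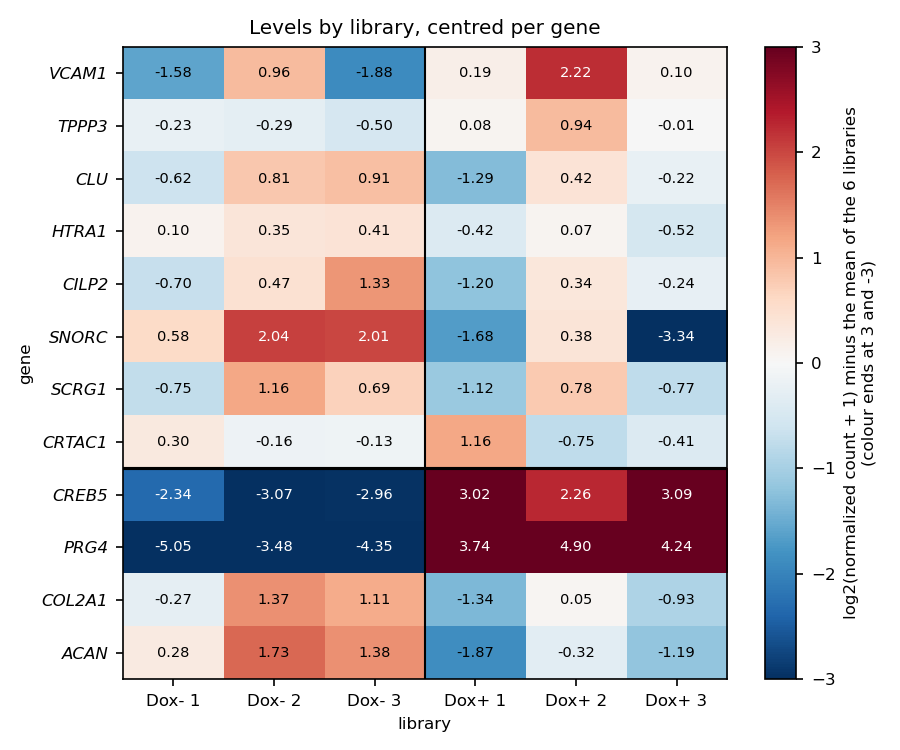
Log2(normalized count + 1) of each gene in each library minus the gene's mean over the 6 libraries (printed in the cells, colour ends at 3 and -3), with the 8 zone marker genes above the line and CREB5, PRG4, COL2A1 and ACAN below it. CREB5 and PRG4 divide the libraries by group, whereas the groups overlap for VCAM1, CLU, CILP2, SCRG1, CRTAC1 and COL2A1. VCAM1 stands at 2.22 in Dox+ 2 and SNORC at -3.34 in Dox+ 3.

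Other genes with the profile of the 4 zone markers of smallest p were sought by the same measure. Nearest to VCAM1 were RAMP1, a receptor activity modifying protein (difference 0.42), the small GTPase gene RRAD (0.44) and the fibulin gene FBLN7 (0.47), all highest in number 2 of each group. RRAD was 42.9, 112 and 14.7 without doxycycline and 93.1, 518 and 102 with it. Nearest to SNORC were CP, which encodes the ferroxidase ceruloplasmin (0.58), the complement gene C6 (0.67) and the Wnt receptor gene FZD9 (0.68), whose log2 fold changes were -2.40, -2.60 and -2.05. HTRA1 lay close to HMGCS1, an enzyme of sterol synthesis (0.05), CHKB, a choline kinase (0.05), and GPC1, the heparan sulfate proteoglycan glypican 1 (0.06). TPPP3 lay closest to FAM214B and MORN4 (0.14 each) and UBALD2 (0.14). All 12 were chosen for their likeness over the same libraries, so no test is given for them.

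Another 12 superficial zone genes were tested beside the 8. Of these, limma called 4 higher and 0 lower on group alone, namely PRG4, the matricellular gene CCN3 (log2 fold change 6.88), the tenascin gene TNXB (3.64) and SEMA3A, a secreted guidance factor (2.96). With the block 7 were higher and 3 lower, and the median log2 fold change was 1.24, against -0.65 over the 8 zone markers and -0.004 over all tested genes. The lower ones with the block included ERG, a transcription factor of articular chondrocytes (-1.17, limma adjusted p = 0.065, blocked 0.0042). Of the deep and calcified zone genes, 8 were tested, with a median of -0.27. MEF2C, whose product drives chondrocyte hypertrophy (2.13), rose and CHAD, a collagen-binding matrix protein (-2.82), fell, and with the block 2 were higher and 3 lower. ALPL was lower in each pair (log2 fold change -2.75, limma adjusted p = 0.17, blocked 0.00031). On group alone limma called 1 gene of this list without Dox+ 1, 0 without Dox+ 3 and 3 without Dox- 1. Without the filter on low values it called 4 (3 higher, 1 lower). COL10A1 and EPYC, at 0 in each Dox- library and under the filter, had 3, 10 and 3 reads and 3, 61 and 4 reads with doxycycline.

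Among 13 tested genes of the cartilage matrix, limma called MATN3, a matrilin, higher (log2 fold change 4.02) and COL9A1, a type IX collagen chain (-2.48), and ACAN, which encodes aggrecan (-2.26), lower. The blocked fit put 1 higher and 6 lower, and the median was -1.48. On group alone 7 were called without Dox- 1 (1 higher, 6 lower) and 1 was called without Dox+ 3 (lower). Averaged over the list and centred, the level was -0.07, 0.89 and 0.69 without doxycycline and -0.77, -0.04 and -0.70 with it. The 8 zone markers averaged -0.36, 0.67 and 0.35 without doxycycline and -0.53, 0.55 and -0.68 with it, so in both lists Dox- 1 was the lowest Dox- library and Dox+ 2 the highest Dox+ library.

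**Figure D4:**
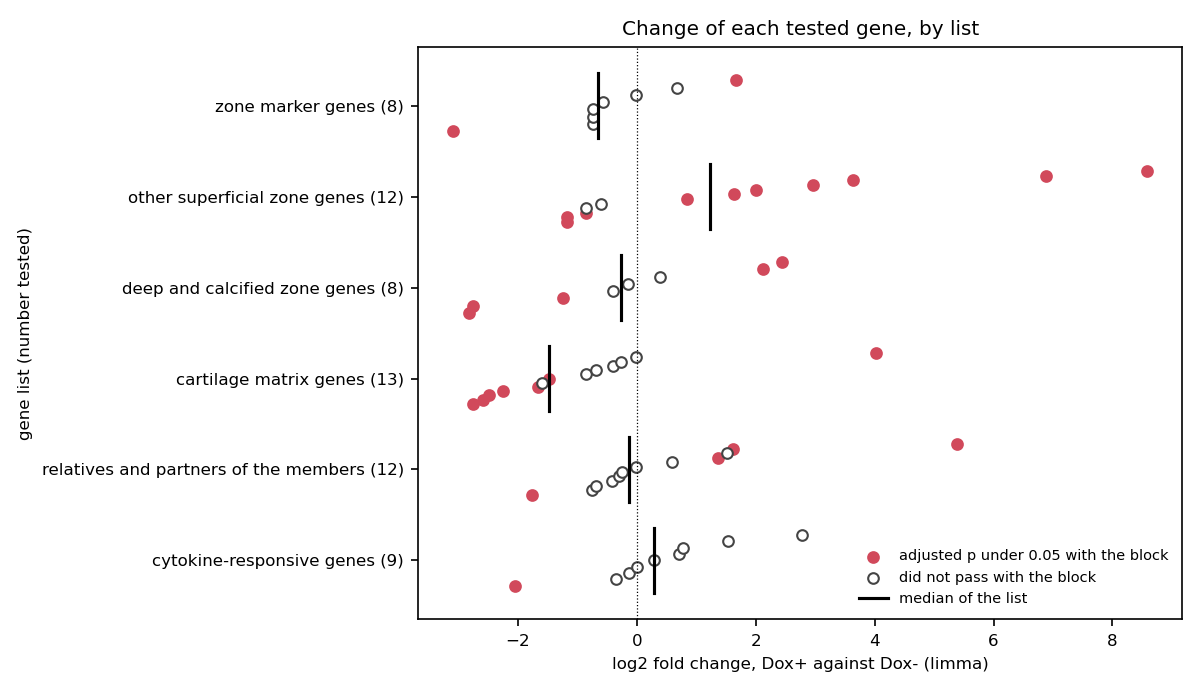
Log2 fold change (Dox+ against Dox-) of every tested gene of the 8 zone markers and of 5 lists of related genes, in limma on group alone; red points had an adjusted p under 0.05 with the block, open points did not, and bars are list medians. The other superficial zone genes spread widest, up to PRG4 at 8.59, and 6 of the 13 cartilage matrix genes lie to the left as red points.

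Relatives and binding partners of the zone markers were mostly without a call: of 12 tested, 2 were higher and 0 lower on group alone, and 3 were higher and 1 lower with the block. Without Dox- 2, Dox- 3, Dox+ 2 or Dox+ 3 the group fit called 1. MCAM, an adhesion molecule of the immunoglobulin superfamily like VCAM1 and also a marker of pericytes, rose from 8.26 ± 0.53 to 408 ± 172 normalized counts (SD, n = 3, limma adjusted p = 0.00021). LRP8, a receptor that can bind clusterin, rose from 719 ± 105 to 1931 ± 807 (adjusted p = 0.043, blocked 0.0027). VLDLR, a related receptor on the same list, was 14209 ± 4769 and 11555 ± 1178 (limma adjusted p = 0.87, blocked 0.63). LRP2, another one, was under the filter, with means of 0.99 and 1.13. ALCAM, another adhesion molecule of the immunoglobulin superfamily, was 1130 ± 568 and 3264 ± 1131 (limma adjusted p = 0.11, blocked 0.010). HTRA3, a secreted protease of the HTRA family, was 931 ± 287 and 296 ± 161 (limma adjusted p = 0.071, blocked 0.0027), so its direction was that of HTRA1. HTRA2, a mitochondrial member, was lower in each pair too (log2 fold change -0.30). HTRA4 was higher in each pair (1.53), and neither HTRA2 nor HTRA4 passed. ICAM1, the adhesion receptor closest in use to VCAM1, was 268 ± 70.7 and 280 ± 122 (log2 fold change -0.02). Of the integrin chains that bind VCAM1, ITGA4 was under the filter, with means of 0.82 and 6.93, and ITGB1 was 60872 ± 13627 and 91530 ± 16869 (limma adjusted p = 0.45). The other two such chains tested, ITGA9 (119 ± 49.1 and 77.6 ± 47.2) and ITGB7 (152 ± 30.8 and 100.2 ± 55.8), were lower in each pair and did not pass either (limma adjusted p = 0.78 and 0.72).

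VCAM1 is also known as a gene of the response to inflammatory cytokines, and 9 other genes of that response were tested. On group alone limma and edgeR called 0 of them and DESeq2 called 1, and with the block limma called IL6 lower. Without Dox- 2 the group fit called 1, lower. IL6 was 1074, 300.2 and 960.1 without doxycycline and 196, 96.7 and 226 with it (limma adjusted p = 0.097, blocked 0.00071). The NF-kB subunit gene NFKB1 had a log2 fold change of 0.001, its inhibitor NFKBIA 0.29 and the chemokine gene CXCL8 2.77. CXCL8 had few reads, 4, 4 and 0 without doxycycline and 8, 27 and 17 with it. TNFAIP2 (1.54), TNFAIP3 (0.78) and BIRC3 (0.70), genes induced by tumour necrosis factor or NF-kB, had positive values, with TNFAIP2 and BIRC3 higher in each pair, while NFKB2 (-0.36) and RELB (-0.13) had negative ones. None of these 8 passed with or without the block.

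VCAM1 and CLU are made by other cells of the joint too, so markers of those cells were read beside them. Summed over 8 endothelial markers, the level was 1762 to 2585 normalized counts in the Dox- libraries and 846 to 1475 in the Dox+ libraries, most of it from ERG. Means in Dox- and Dox+ cells were 102 and 110 for TEK, 49.1 and 50.5 for VWF and 45.6 and 18.0 for PECAM1, and none of these 3 passed. CDH5 and EMCN had means of 1.23 and 0.41 in Dox- cells and were at 0 in each Dox+ library, where a count of 0 allows up to 5.08, 1.32 and 6.98. Over 7 leukocyte and macrophage markers the sum was 206 to 464 in Dox- and 381 to 712 in Dox+, with ITGAM at 0 in all libraries, and none of the 3 tested passed in limma, with or without the block. The 7 synovial fibroblast markers summed to 324290 to 416069 and 270503 to 326236, with CLIC5 at 0 in all libraries, and with the block 0 were higher and 2 lower. Smooth muscle and pericyte markers summed to 28121 to 34826 and 21274 to 27849, most of it from CSPG4. Of the 5 tested, limma called MCAM higher and ACTA2 lower on group alone, the latter from 1475 ± 404 to 348 ± 65.0 (limma adjusted p = 0.0031). With the block DES was higher too (3860 ± 2714 and 10653 ± 5429, limma adjusted p = 0.36, blocked 0.0014) and CSPG4 lower. RGS5 was at 0 in each Dox- library and had a mean of 6.99 in Dox+ cells, and MYH11 had means of 1.23 and 3.11. The 6 adipocyte markers summed to 1389 to 1720 and 2485 to 2785, with LEP at 0 in all libraries, and the blocked fit put 2 higher. The 5 tendon and ligament markers summed to 1398 to 2856 and 2278 to 2520, with TNMD and KERA at 0 in all libraries. Of the 3 tested, THBS4 was higher with the block (44.0 ± 36.4 and 121 ± 58.4, limma adjusted p = 0.36, blocked 0.022), and SCX and MKX did not pass. Beyond these values, the part of other cells in the results was not tested.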

How the data were processed

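Libraries of 3 Dox- and 3 Dox+ cultures had been made with the KAPA mRNA HyperPrep kit, per the labels' protocols. The authors deposited gene signal as normalized counts, each library's counts divided by 1 size factor. Their deposited comparison table adds log2 fold changes and unadjusted and adjusted p-values. Those folds appear to be shrunken: for the zone markers they lay nearer to 0 than in DESeq2 with the block, at like p-values. SCRG1 had -0.34 (deposited unadjusted p = 0.14) against -0.73 (DESeq2 with the block, unadjusted p = 0.14). TPPP3 had 0.53 (0.019) against 0.68 (0.019). The deposited folds are thus not on the scale of the other fits. Per the submitters' processing notes, STAR 2.5.2b, Salmon, DESeq2, FastQC 0.11.3 and MultiQC 1.2 are among the tools named, without roles, beside the builds ARS-UCD1.2 and bosTau9. For strand setting and annotation version, the sources used here give nothing.

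Genes with a mean of at least 10 were tested on log2(normalized count + 1) in limma 3.58.1 under R 4.3.3 (two-sided, trended eBayes) with group as the only term and Benjamini-Hochberg adjustment over all 13180. Fold changes are on that scale. Reads were recovered from the step between values (100% of values above 0 were whole within 0.01 read) and were tested with edgeR 4.0.16 and DESeq2 1.42.0 (343 and 701 genes called). Limma with and without the block, and edgeR and DESeq2 without it, were checked on simulated data that held no difference between numbers. The other fits, among them edgeR and DESeq2 with the block, were not checked in this way. No 2 libraries agreed within sampling noise (chi-square per degree of freedom at least 54.9).

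Same-numbered libraries deviated together (r across genes of their deviations from the group means 0.65, 0.44 and 0.21 for numbers 1, 2 and 3). Among differently numbered libraries r was highest between Dox- 3 and Dox+ 2, at 0.18, and was below 0 for the rest. The check thus sets number 3 apart only weakly. Deviations from a group mean sum to 0 for each gene, so the values below 0 are partly built in and add no separate evidence. The numbers were taken to pair the libraries, and values with the number as a block stand beside those without. The pairing comes from the titles and this check, since the labels do not tie a number to a knee. No molecular identifiers mark single molecules, so counting intervals and the floor of 3 reads cover counting error only. Levels were not compared between genes, for want of transcript lengths.

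The members and lists were chosen with earlier results of these data known. Named genes were all members, CREB5 and PRG4, the 3 nearest genes (mean of at least 50) to the 4 members of smallest p, and up to 4 called genes of each list, in either fit. NGEF, and list members without a call on group alone such as ALPL, SPP1, EPYC and ICAM1, were named after their values were seen. Matches to RefSeq's ARS-UCD2.0 table, another build, served only to find neighbouring and overlapping genes. Protein and promoter sequences were not analysed here. Alternatives were other pseudocounts, filters, scalings, tests, the block, and each library left out.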

Additional observations from a re-analysis of the deposited data

How the results depend on the processing

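On group alone, limma called 379 genes and 0 zone markers, and 148 to 437 genes and 0 to 1 zone markers (SNORC, without Dox+ 2) with 1 library left out. It called 224 genes without Dox+ 1 and 148 without Dox+ 3. The replicate block gave 858 genes and 2 zone markers in limma, 781 and 2 in edgeR and 1049 and 3 in DESeq2, which without the block gave 701 and 1. With the block and a pair left out, an alternative added after seeing the data, limma called 790, 1210 and 1454 genes and 2, 4 and 3 zone markers without pair 1, 2 and 3. The block changed no call of the 8 beyond those of VCAM1, SNORC and, in DESeq2, CLU, with all libraries.

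VCAM1, TPPP3, CLU, HTRA1, CILP2, SNORC and SCRG1 kept their direction under all 21 alternatives run. CRTAC1 turned positive under 13 of 20, with log2 fold changes of 0.018 (pseudocount 5), 0.0019 (TMM scaling), 0.10 (library totals), 0.22 (edgeR and DESeq2), 0.21 (edgeR without a filter, added later), 0.045 and 0.012 (edgeR and DESeq2 with the block), 0.29 and 0.13 (with the block, without pair 2 and 3), and -0.59 to 0.37 with 1 library left out. The cause was not tested. It has no value under the filter of 50. Scaling to library totals moved the median of all genes from -0.004 to 0.10. Depth limits SNORC, SCRG1 and CRTAC1, which had 2, 14 and 9 reads in Dox+ 3.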

Other observations

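The nearest tested neighbours of the zone markers in RefSeq's ARS-UCD2.0 gene order were read beside them. EXTL2, next to VCAM1, had a log2 fold change of 0.18 in Dox+ cells, and GIGYF2 and ATG16L1, to either side of SNORC, had 0.28 and 0.06. SCARA3 and NDUFB6, around CLU, had -0.22 and -0.06, PLEKHA1, next to HTRA1, had 0.22, and PLEKHG4 and ZDHHC1, around TPPP3, had -0.44 and -0.20. PBX4 and YJEFN3, around CILP2, had 0.29 and -0.22, and GOLGA7B and R3HCC1L, around CRTAC1, had 0.68 and -0.08. The other neighbours of VCAM1 and HTRA1, LOC534578 and LOC510536, had 0.83 and 0.47. Of the neighbours of SCRG1, SAP30 had -0.32, in the direction of SCRG1. HAND2, the other one, a transcription factor gene, was 604, 822 and 772 normalized counts without doxycycline and 917, 1696 and 1137 with it, without overlap between the groups, in the direction opposite to SCRG1. Its limma adjusted p was 0.31, or 0.06 once the block was added. None of these 16 neighbours passed with or without the block. NGEF, which overlaps SNORC and is described above, is not among them and was lower in Dox+ (limma adjusted p = 0.015, blocked 0.0011).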
